A study of Mus musculus with 3 samples.

Results

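The 9 genes described here are the 5 RecQ DNA helicases of the mouse (Blm, Wrn, Recql, Recql4 and Recql5), the Blm partners Top3a and Rmi1, and the recombination genes Brca1 and Brca2. They were taken by name from the 22457 genes of the count tables, and all 9 were found. The set was chosen by its centre, Blm, whose counts were already known to differ strongly between the libraries, so the Blm values are given as a description without a test. PolyA plus RNA-seq was made from regulatory T cells of the mouse, CD4 T cells that restrain other immune cells and are marked by the transcription factor Foxp3. They were taken as primary cells at an adult age of 4 months, and the labels trace them to haematopoietic cells of bone marrow. All samples form 1 group, with no allele, treatment or control group named and the sex not collected, and the 3 libraries are technical replicates 1, 2 and 3 of biological replicate 1, all from 1 biosample. The labels do not say whether animals were pooled or at which step the libraries were split, so p-values measure only the spread between these libraries, which may be technical.

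RecQ helicases unwind DNA structures that arise when replication forks stall or when broken DNA is repaired by copying a sister strand. Blm works in a complex with the topoisomerase Top3a and the scaffold protein Rmi1, which separates joined DNA molecules without exchanging their arms. Brca1 promotes the processing of broken ends, and Brca2 acts later, on the single-stranded DNA so formed. Loss of BLM or WRN in humans causes Bloom or Werner syndrome, and deletion of Blm in the T cell lineage of mice is known to impair T cell development.

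The helicases share a core whose DExH box takes part in ATP hydrolysis. The bases that encode this box and the codons after it are shown because they define the family. They were read from GENCODE M21 transcripts (GRCm38), 5′ to 3′ on the coding strand, which is the minus strand in all 5 genes. Capitals mark the 12 bases of the box.
Blm: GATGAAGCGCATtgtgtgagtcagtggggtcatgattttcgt
Wrn: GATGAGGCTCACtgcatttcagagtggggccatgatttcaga
Recql: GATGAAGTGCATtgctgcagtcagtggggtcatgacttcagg
Recql4: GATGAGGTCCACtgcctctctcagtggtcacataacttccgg
Recql5: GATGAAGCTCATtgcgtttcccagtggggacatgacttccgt

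Each stretch was located by a protein pattern: Asp, Glu, Ala or Val, His and Cys, then Ser, Trp, Phe and Arg at set places. Many of the shared bases are therefore fixed by the search and do not measure conservation. Of these 42 bases, 22 were the same in all 5 genes, and 8 of the 12 bases of the box were. The 10 pairs shared 26 to 33 bases. Blm shared 33 with Recql and with Recql5, 28 with Wrn and 26 with Recql4. In Blm the stretch spans the junction of exons 11 and 12 of 22 (chr7:80494233-80494456, intron included). It lies in exon 17 of 34 in Wrn (chr8:33305699-33305740), exon 6 of 15 in Recql (chr6:142372820-142372861), exon 12 of 22 in Recql4 (chr15:76706441-76706482) and exon 3 of 19 in Recql5 (chr11:115928229-115928270).

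The libraries held 3206781, 3228215 and 2872350 counts. The cells carried the regulatory T cell markers, since Foxp3, Il2ra, Ctla4, Ikzf2, Cd4 and Cd3e together reached 2112, 2003 and 2079 CPM (counts scaled to a library total of 1000000) in libraries 1, 2 and 3. Markers of other cells were present at lower and unequal levels. In the same order of libraries, 6 B cell markers summed to 235, 297 and 390 CPM, 4 plasma cell markers to 93.9, 199 and 130 CPM, 6 erythroid markers to 9.36, 148 and 121 CPM and 6 neutrophil markers to 1.56, 74.3 and 7.31 CPM. The 6 monocyte and dendritic cell markers summed to 36.5, 25.7 and 54.3 CPM and the 2 CD8 markers to 27.8, 34.4 and 39.0 CPM. Hbb-bs, Hbb-bt and Klf1 of the erythroid markers and S100a8, S100a9 and Elane of the neutrophil markers were at 0 in library 1. The 12 markers of cycling cells summed to 991, 1021 and 790 CPM.

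Levels of different genes were compared as TPM, the count per kilobase of coding sequence rescaled to sum to 1000000 in each library, computed from the longest coding sequence of each gene. Recql was the most abundant of the 9 transcripts and Recql4 the least. Recql, a helicase of replication and repair, stood at 103 ± 6.11 TPM (SD, n = 3, as for all means here), above 80.5% of the 14847 genes that had a count and a coding length. Wrn followed at 52.0 ± 7.68 TPM, Recql5 at 42.4 ± 5.71 TPM and Top3a at 30.5 ± 3.05 TPM. These 4 genes lay above the median of those 14847 genes, 18.8 TPM, in every library.

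The other 5 genes lay below that median in every library. Blm averaged 11.5 ± 7.21 TPM, Rmi1 10.04 ± 1.98 TPM, Brca1 5.87 ± 0.415 TPM, Brca2 3.44 ± 0.592 TPM and Recql4 2.06 ± 0.781 TPM. The median of the 9 genes was 11.5 TPM, which is the value of Blm itself. Neighbours in this order had ranges over the libraries that overlapped for Wrn with Recql5 and for Blm with Rmi1, and the other 6 neighbouring pairs did not overlap. With union exon length in place of coding length, Wrn (83.3 TPM) stood above Recql (75.4 TPM), Top3a (57.9 TPM) above Recql5 (51.8 TPM) and Brca1 (10.8 TPM) above Rmi1 (8.19 TPM), so the order within these pairs depends on the length used.

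**Figure D1:**
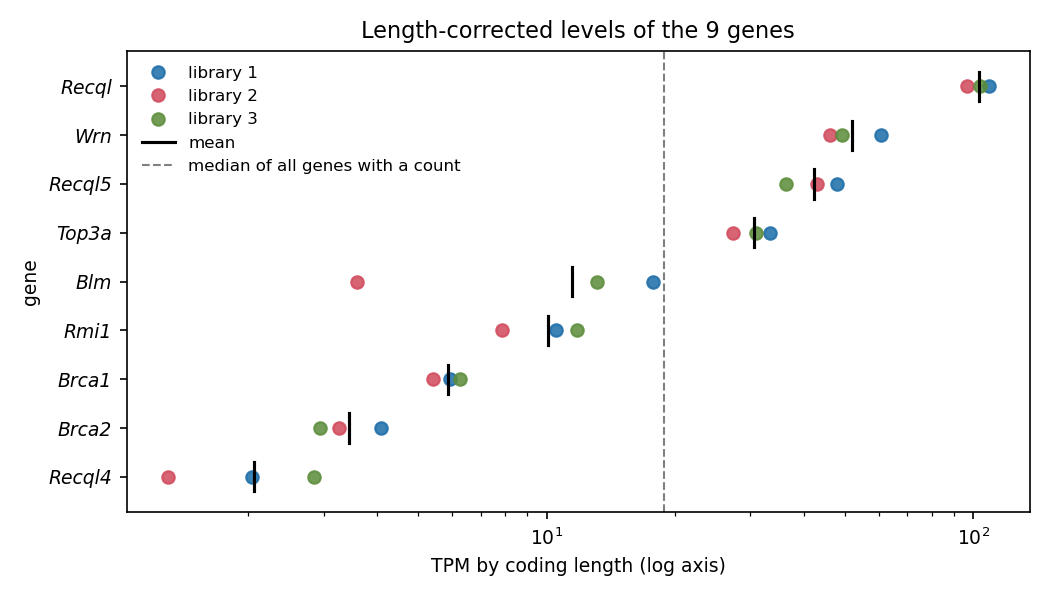
TPM by coding length (log axis) of the 9 genes, ordered by their mean over 3 libraries. Points are libraries, black bars means, and the dashed line the median of 14847 genes, 18.8 TPM. Blm spreads more widely than any of the other 8 genes, with library 2 far below the other libraries.

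Blm, the helicase of the dissolution complex, had 183, 39 and 123 counts in libraries 1, 2 and 3. These equal 57.1 CPM in library 1 (95% exact binomial interval 49.1 to 65.96), 12.1 CPM in library 2 (8.59 to 16.5) and 42.8 CPM in library 3 (35.6 to 51.1). Library 2 was low, and its interval lay apart from those of libraries 1 and 3, which were high and overlapped each other. Intervals cover counting error only.

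Scaled by total count and TMM factor (a correction for composition), Blm in library 1 was 4.85 times its level in library 2 (95% exact binomial interval of the ratio 3.42 to 7.04), or 2.28 on the log2 scale. Library 3 was 3.63 times library 2 (2.51 to 5.34), and library 1 was 1.34 times library 3 (1.06 to 1.69). Without library 2 the difference between highest and lowest library was therefore 0.42 on the log2 scale. The coefficient of variation of Blm in CPM was 61.6%, where counting error alone gives 9.33% at its mean count of 115. In bulk RNA, fewer cells with a transcript and less transcript per cell cannot be told apart.

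Among the 6284 genes with a mean count of at least 100, 5 others had a highest library at least as far above the lowest as Blm did. Named here after their values were seen, they were the immunoglobulin genes Igkv19-93, Ighg2c, Igha and Igkv5-39 and the beta globin gene Hbb-bs. Among the 7855 genes with a mean count of at least 50 there were 20 others, of which 15 were immunoglobulin genes. The 5 protein-coding genes among the 20 were Hbb-bs, Hbb-bt, Hba-a1, the haem synthesis gene Alas2 and Wdfy4, a gene known from dendritic and B cells. These genes went in different directions. Hbb-bs had 0, 167 and 145 counts and Igha 4, 1007 and 149 counts in libraries 1, 2 and 3, both lowest where Blm was highest. Ighv4-1 had 207, 0 and 72 counts and Igkv1-110 142, 6 and 6, both highest in library 1 and lowest in library 2, as Blm was. Of the 21 genes with Blm included, 6 were lowest in library 2. The summed erythroid, neutrophil and plasma cell markers were highest in library 2, where Blm was lowest, with 148 CPM for the erythroid, 74.3 CPM for the neutrophil and 199 CPM for the plasma cell markers. The plasma cell sum was carried by Jchain, with 92, 389 and 129 counts. Mzb1 (8.42, 13.9 and 15.0 CPM) and Xbp1 (56.8, 62.3 and 70.3 CPM) were highest in library 3, and Sdc1 had 0, 8 and 0 counts. The summed monocyte and dendritic cell markers were lowest in library 2, as Blm was, at 25.7 CPM, but their members differed. Csf1r, the receptor gene that marks monocytes, had 50, 19 and 46 counts in libraries 1, 2 and 3, and Cd68 had 37, 23 and 46. Flt3 had 8, 8 and 22 counts and Lyz2 20, 29 and 38. Lyz2, Itgax and Clec9a were lowest in library 1. The part of these cells in the Blm counts was not tested.

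**Figure D2:**
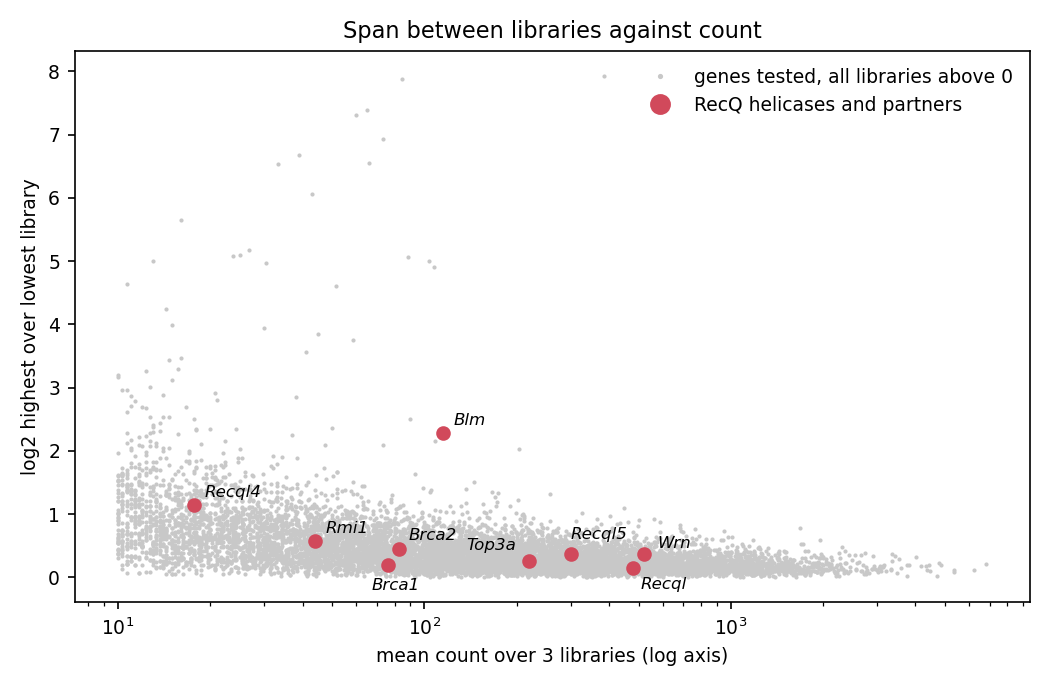
Log2 of the highest over the lowest library (TMM-scaled) against the mean count (log axis). Grey points are 10239 named genes whose mean count reached 10 and which had no library at 0, and red points the 9 genes. Blm stands at 2.28, above nearly all genes of like count, and the others lie between 0.15 and 1.14.

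The gene models next to Blm did not show its dip in library 2. The Blm model lies on chromosome 7 at 80454733 to 80535119 on the minus strand (GRCm38, GENCODE M21). The nearest gene with a mean count of at least 10 on the lower side was Furin, a protease gene 49296 bases away, with 57, 73 and 53 counts and its highest level in library 2. On the higher side it was Crtc3, a transcription coactivator gene 51507 bases away, with 63, 64 and 43 counts. Furin and Crtc3 did not pass a chi-square test of the 3 counts against Poisson expectation (Benjamini-Hochberg adjusted p = 0.563 and 0.468). The pseudogene Ndufab1-ps lies inside the Blm model and has no row in the tables used here.

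Genes with a profile over the 3 libraries most like that of Blm were sought among those with a mean count of at least 100. Likeness was the Euclidean distance between log2(CPM + 0.5) values, each centred on the gene's mean, over 3 libraries only. The nearest 5 were Zcwpw1 (distance 0.703), the gut-homing chemokine receptor gene Ccr9 (0.721), the crosslink repair nuclease gene Dclre1a (0.788), the red cell metabolic enzyme gene Bpgm (0.845) and the galectin gene Lgals4 (0.864). Zcwpw1, a reader of histone methylation, had 169, 73 and 168 counts, and Dclre1a 182, 83 and 146 counts. All 5 were lowest in library 2, which follows from how they were picked, and none dipped as far as Blm. The distances of the other 8 genes of the set from Blm ran from 1.17 for Recql4 to 1.70 for Recql5.

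The remaining RecQ helicases differed less between libraries. Wrn, which joins helicase and exonuclease activities in one protein, had 618, 494 and 456 counts, or 193, 153 and 159 CPM, in libraries 1, 2 and 3. Library 1 was high, 1.29 times library 2 (1.15 to 1.46) and 1.22 times library 3 (1.08 to 1.38), while libraries 2 and 3 differed within counting error (ratio of library 3 to library 2 1.06, interval 0.932 to 1.21). Recql5, which binds RNA polymerase II, had 341, 322 and 237 counts, or 106, 99.7 and 82.5 CPM. Here library 3 was lowest, and library 1 was 1.29 times library 3 (1.09 to 1.53), while libraries 3 and 2 differed within counting error (ratio of library 3 to library 2 0.846, interval 0.713 to 1.004).

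Recql was the steadiest of the RecQ genes. It had 511, 477 and 446 counts, or 159, 148 and 155 CPM, and its coefficient of variation of 3.81% was below the 4.57% that counting error gives. All 3 ratios between its libraries had intervals that included 1. Recql4, a helicase of replication initiation mutated in human Rothmund-Thomson syndrome, had 18, 12 and 23 counts, or 5.61, 3.72 and 8.01 CPM. Library 3 was 2.20 times library 2, with an interval of 1.05 to 4.86, so at this depth its size is poorly fixed.

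Within the summed TPM of the 5 helicases, Recql made up 49.0 ± 2.76%, Wrn 24.6 ± 0.910%, Recql5 20.2 ± 2.41%, Blm 5.25 ± 2.97% and Recql4 0.976 ± 0.370%. The Blm share ran from 1.89% in library 2 to 7.49% in library 1. The shares of Wrn kept within 23.9% and 25.6%.

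**Figure D3:**
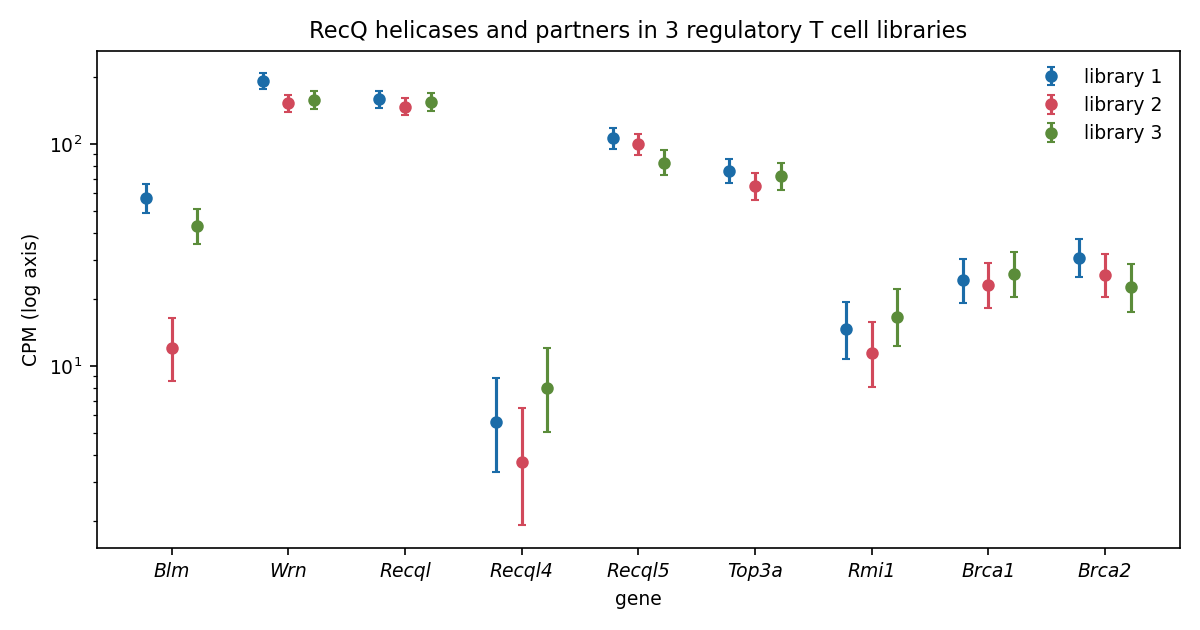
CPM (log axis) of each gene in libraries 1, 2 and 3, with 95% exact binomial intervals as bars. The Blm interval of library 2 lies apart from those of libraries 1 and 3, which overlap each other, whereas all 3 intervals overlap for Recql, Recql4, Top3a, Rmi1, Brca1 and Brca2.

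The partners of Blm in the dissolution complex differed between libraries by no more than counting error allows. Top3a, the topoisomerase that passes single strands, had 243, 209 and 206 counts, or 75.8, 64.7 and 71.7 CPM. Rmi1, which binds Blm and Top3a, had 47, 37 and 48 counts, or 14.7, 11.5 and 16.7 CPM. Both were lowest in library 2, but every ratio between libraries of either gene had an interval that included 1. The largest were 1.20 for Top3a, library 1 over library 2 (0.994 to 1.45), and 1.49 for Rmi1, library 3 over library 2 (0.951 to 2.36).

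Top3b, the paralogue of Top3a, stood above it in TPM by coding length by 1.09 ± 0.03 on the log2 scale, with 452, 373 and 377 counts. This excess depends on the length used. Top3b has the shorter coding sequence (2586 against 3009 bases) but the longer union exon length (8400 against 4599 bases). Mean CPM was 129 for Top3b and 70.7 for Top3a. Rmi2, a further subunit of the complex, had 0, 0 and 3 counts. A count of 0 allows up to 0.936 CPM in library 1 and 0.929 CPM in library 2. Relative to Top3a in TPM, Blm stood at -0.91, -2.92 and -1.24 on the log2 scale in libraries 1, 2 and 3, while Rmi1 stood at -1.67, -1.79 and -1.40. The ratio to Top3a was thus lowest in library 2 for both genes, and its SD was 1.08 for Blm and 0.20 for Rmi1.

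Brca1 and Brca2 varied little beyond counting error. Brca1, a ubiquitin ligase subunit with its partner Bard1, had 78, 75 and 75 counts, or 24.3, 23.2 and 26.1 CPM, and its coefficient of variation was 5.92% against 11.5% for counting error. Brca2 had 99, 83 and 65 counts, or 30.9, 25.7 and 22.6 CPM. It was highest in library 1 and lowest in library 3, with a ratio of 1.37 (0.991 to 1.90). In TPM, Brca1 exceeded Brca2 by 0.78 ± 0.28 on the log2 scale. Brca1 exceeded Bard1 by 1.62 ± 0.73, with Bard1 at 7, 18 and 9 counts, and Brca2 lay at -1.26 ± 0.32 relative to Palb2, its link to Brca1, which had 65, 62 and 66 counts.

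**Figure D4:**
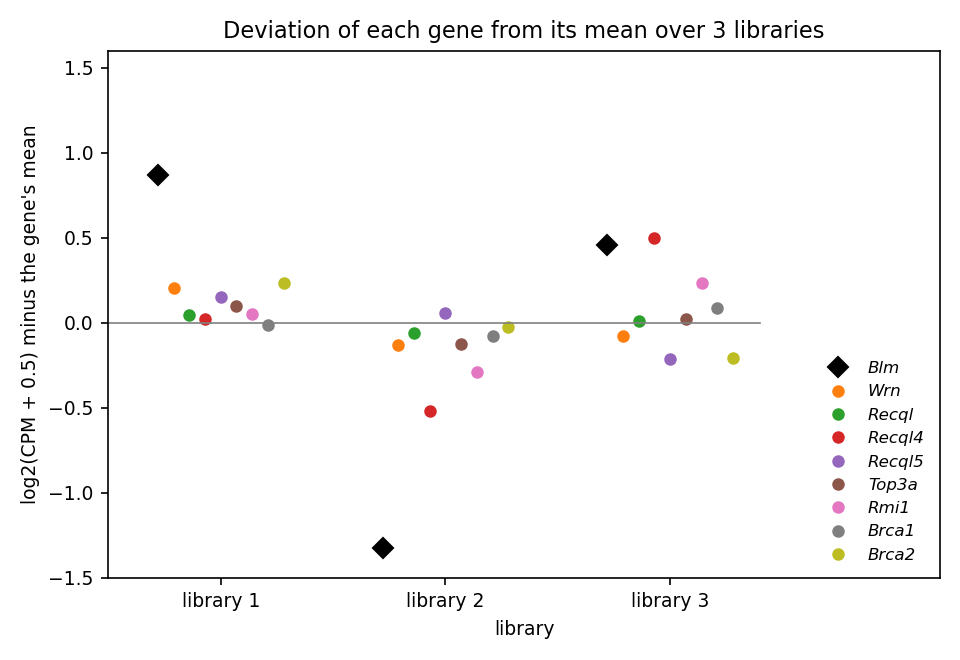
Deviation of log2(CPM + 0.5) from the gene's mean over 3 libraries, by library. Blm (black diamonds) deviates by 0.87, -1.33 and 0.46 in libraries 1, 2 and 3, and Recql4, at 12 to 23 counts, deviates most among the other 8 genes.

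All 9 genes had a mean count of at least 10 and entered the chi-square test across all genes, which called 2836 of 10282 genes (27.6%) at a Benjamini-Hochberg adjusted p of 0.05. Of the 8 genes other than Blm, 2 were past that threshold, Wrn and Recql5, both highest in library 1. By the library with the highest level, the called genes made up 11.1% (library 1), 8.71% (library 2) and 7.75% (library 3) of all genes tested. Since differences between the libraries were what drew attention to the set, nothing is read from the count of 2. The test called 1691 genes without library 1 and 960 without library 2. Wrn was not called without library 1, and Recql5 was called neither without library 1 nor without library 3. With a negative binomial model, which allows a coefficient of variation of 12.5% shared by all genes, 94 genes were called (0.914%) and 0 of the 8. Of the 8, 0 had an unadjusted p under 0.05. The 12.5% was estimated from these same 3 libraries. This model therefore asks only which genes spread more than genes in general, and cannot show that the libraries do not differ.

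The lowest level of 7 of the 9 genes was in library 2, and of Recql5 and Brca2 in library 3. Blm, chosen for its difference between libraries, is among the 7. For Recql, Top3a, Rmi1 and Brca1 the libraries differed within counting error, so nothing is read from the count of 7. Of all genes tested, 36.5% were lowest in library 2 with TMM factors and 31.7% with plain totals, and the 7 genes were the same number with both. The sum of the 9 genes was 667, 541 and 585 CPM in libraries 1, 2 and 3, and without Blm 610, 529 and 542 CPM. The part of library composition in this was not tested.

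The set was placed beside 91 other genes of recombination and repair in 10 lists, of which 88 reached a mean count of 10. Of these, 25 passed the chi-square test, a share of 28.4% against 27.6% of all genes, so the lists differed between libraries about as often as genes in general. Library 1 was highest in 16 of the 25, library 2 in 2 and library 3 in 7. Of the 2836 called among all genes, library 1 was highest in 1143, library 2 in 896 and library 3 in 797. Without library 1 the count was 13, and without library 2 it was 8. Each of the 25 lost its call when at least 1 of the libraries was left out. The median ratio of highest to lowest library was 1.26 in the 88 genes and 1.25 in all 10282. With the negative binomial model 0 of the 88 were called. An unadjusted p under 0.05 was seen in 10 of the 88 and in 693 of all 10282 genes, a larger share in the lists. The lists were chosen with earlier results known, so nothing is read from this.

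Topoisomerases and their partners passed in 4 of 5 tested genes, where 27.6% of all genes tested did. With a list this small, nothing is read from this count. The 4 were Top2a and Top3b with the highest level in library 1, Top2b in library 2 and Tdrd3 in library 3. Top1, which relaxes supercoils, had the highest TPM of this list at 131 ± 5.04, with 701, 793 and 677 counts. Top2b, the isoform also made in resting cells, had 99.7 ± 9.07 TPM and was highest in library 2 (1086, 1353 and 1030 counts, adjusted p = 0.000148, chi-square test). Top2a, the isoform of dividing cells, had 1099, 848 and 651 counts and was 1.52 times higher in library 1 than in library 3 (adjusted p = 1.70e-16, chi-square test). Top2a is also one of the 12 cycling cell markers, whose sum was likewise lowest in library 3, whereas Mki67 was highest in library 2 (553, 776 and 436 counts).

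Among genes for single-strand binding, end resection and Brca partners, 1 gene of each list passed, where 27.6% of all genes tested did. With lists this small, nothing is read from these counts. Of 5 single-strand binding genes 1 passed, Rpa1, a subunit of replication protein A, at 329 ± 23.4 TPM and 1652, 1506 and 1402 counts (adjusted p = 0.0121, chi-square test). Rpa3, another subunit, stood at 133 ± 12.6 TPM. Of 9 Brca1 and Brca2 partners 1 passed, Uimc1 of the Brca1-A complex (816, 657 and 718 counts, adjusted p = 3.17e-05, chi-square test). The proteasome and Brca2 partner Sem1 led them at 789 ± 44.5 TPM, followed by Babam2 of the Brca1-A complex at 183 ± 11.8 TPM. Of 6 resection genes 1 passed, the nuclease gene Mre11a (217, 211 and 239 counts, adjusted p = 0.0457, chi-square test), and Rad50 and Nbn, subunits of the complex that senses broken ends, stood at 94.6 ± 1.31 and 68.5 ± 4.99 TPM.

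In strand exchange and junction resolution, 1 gene of each list passed as well, against 27.6% of all genes tested. Of 13 tested strand exchange genes 1 passed, Swi5, an accessory factor of recombination, with 350, 429 and 275 counts and 347 ± 52.6 TPM (adjusted p = 0.00242, chi-square test). Its partner Sfr1 stood at 328 ± 8.14 TPM. Of 6 resolution genes 1 passed, Eme1, the partner of the nuclease Mus81, with 30, 28 and 8 counts and a ratio of 3.37 between libraries 1 and 3 (adjusted p = 0.0213, chi-square test). Mus81 and Eme2 led this list at 71.8 ± 2.46 and 55.3 ± 2.02 TPM.

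Fanconi anaemia genes, which repair crosslinked DNA together with Brca2, passed in 4 of 13 tested genes (30.8%), near the 27.6% of all genes tested. All 4 were highest in library 1, as were 1143 of the 2836 called among all genes. Nothing is read from so few genes. Fancd2 had 60, 42 and 23 counts (2.34 times, adjusted p = 0.00832, chi-square test) and Fancb 77, 57 and 34 counts (2.03 times, adjusted p = 0.0101), both lowest in library 3. Fancm, the translocase that recruits the Blm complex to stalled forks, had 125, 73 and 100 counts (1.77 times, adjusted p = 0.00283), and Fancc 137, 82 and 87 counts (1.73 times, adjusted p = 0.00193). Fancm and Fancc were lowest in library 2. The highest TPM of the list belonged to Faap20 (122 ± 14.6) and Faap24 (90.7 ± 2.61), with no call.

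End joining genes passed in 3 of 12 (25%), near the 27.6% of all genes tested, namely Xrcc6, Parp1 and Dclre1c. Xrcc6, which encodes the Ku70 subunit, had 570, 378 and 522 counts, was lowest in library 2 and differed 1.59-fold between libraries 3 and 2 (adjusted p = 1.48e-11, chi-square test). Xrcc6 and Parp1, a sensor of strand breaks, had the highest TPM of the list at 113 ± 27.6 and 86.6 ± 12.4. Parp1 was highest in library 1, with 733, 578 and 575 counts. Of 9 other helicases of forks and recombination 5 passed, 4 of them highest in library 1, where 27.6% of all genes tested passed. With a list this small, nothing is read from these counts. Rtel1, a helicase that dismantles strand invasion loops, had 480, 333 and 253 counts (1.70 times, adjusted p = 1.37e-11), and Ddx11, a helicase of sister chromatid cohesion, 243, 156 and 154 counts (1.61 times, adjusted p = 7.01e-05). Hltf and Fbh1 led these helicases in TPM at 121 ± 9.88 and 62.7 ± 7.88.

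Checkpoint genes passed in 4 of 10, where 27.6% of all genes tested did, and nothing is read from so small a list. The 4 were Chek1 and the kinase genes Atm and Atr, highest in library 3, and Atrip, the partner of Atr, highest in library 1. Atr had 859, 671 and 774 counts and was lowest in library 2 (adjusted p = 2.26e-07, chi-square test). Chek1, the effector kinase of the replication checkpoint, had 30, 19 and 42 counts and differed 2.54-fold between libraries 3 and 2 (adjusted p = 0.0113, chi-square test). Tipin and Rad17 had the highest TPM at 130 ± 11.4 and 67.4 ± 7.35, with no call.

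**Figure D5:**
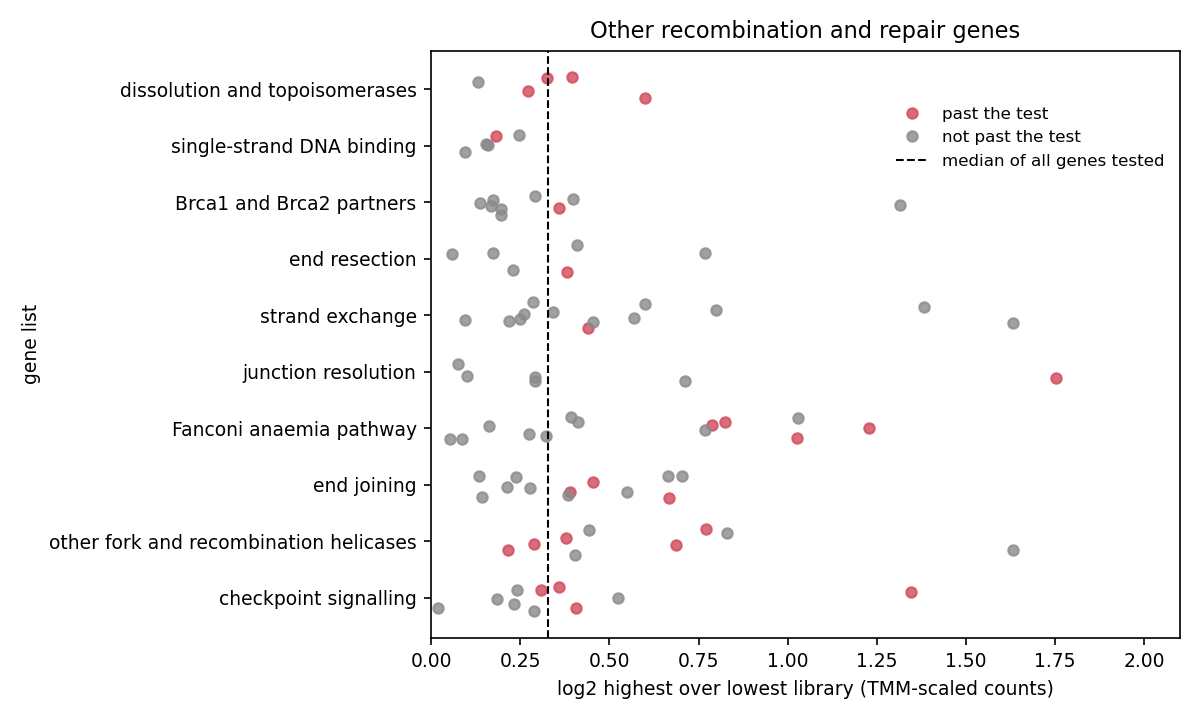
Log2 of the highest over the lowest library for the 88 tested genes of 10 recombination and repair lists, one point per gene, with red for genes past the chi-square test. The dashed line is the median of all genes tested, 0.33. None of the 88 reaches the 2.28 of Blm, and the widest called gene is Eme1 at 1.75.

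Some counts could include reads of overlapping genes, since the strand setting of the counting is not given in the sources used here. Recql overlaps Pyroxd1 on the other strand over 12916 bases (171, 184 and 200 counts), Recql4 overlaps Mfsd3 over 687 bases (73, 70 and 48 counts), and Rmi1 overlaps Hnrnpk over 1096 bases (794, 832 and 843 counts). Recql5 overlaps Sap30bp over 196 bases (302, 341 and 287 counts), Smim6 over 1904 bases (12, 8 and 9 counts), Smim5 over 6304 bases (2, 0 and 2 counts) and Myo15b over 9 bases (7, 5 and 3 counts). Recql5os1, and Gm25284, Gm23641, Gm42529 and Gm42531 within the Brca2 model, were not used here. Wrn (chromosome 8, 33234384 to 33385527, minus strand), Top3a (chromosome 11, 60740058 to 60777365, minus strand) and Brca1 (chromosome 11, 101488764 to 101551955, minus strand) overlap no other model of GENCODE M21. The remaining models lie at 142350342 to 142387087 on chromosome 6 (Recql, minus strand), 76703553 to 76710548 on chromosome 15 (Recql4, minus strand), 115892595 to 115933477 on chromosome 11 (Recql5, minus strand), 58402248 to 58411148 on chromosome 13 (Rmi1, plus strand) and 150522630 to 150570329 on chromosome 5 (Brca2, plus strand). The identifiers in the count tables are ENSMUSG00000030528.8 for Blm, ENSMUSG00000031583.8 for Wrn, ENSMUSG00000030243.12 for Recql, ENSMUSG00000033762.7 for Recql4, ENSMUSG00000020752.7 for Recql5, ENSMUSG00000002814.11 for Top3a, ENSMUSG00000035367.8 for Rmi1, ENSMUSG00000017146.8 for Brca1 and ENSMUSG00000041147.7 for Brca2.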

How the data were processed

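The authors deposited whole-number counts per gene for 3 libraries, made from alignments to mm10 with GENCODE M4, per the text deposited with each library. Not given in the sources used here are aligner, counting program, strand setting and duplicate removal. Names, positions and coding lengths came from GENCODE M21 (GRCm38), which matched 22195 of 22457 identifiers. The unmatched 262 held 0.117% of counts. Depth was 3206781, 3228215 and 2872350 counts. CPM used plain totals. TPM was computed here from coding length.

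Differences between libraries were tested per gene by Pearson's chi-square against Poisson expectation with 2 degrees of freedom at totals times TMM factors (edgeR 4.0.16, R 4.3.3), for a mean count of at least 10, with Benjamini-Hochberg adjustment over all genes at 0.05. The test was tried on simulated data. With 1 group, no comparison between conditions was possible. The 9 genes and the lists were chosen with earlier results of these data known. Named list genes were the 2 highest in TPM of each list and called genes differing 1.5-fold or more, and the 5 genes nearest to Blm, its neighbours, overlapping genes and cell markers were named too. Where a list held 5 or fewer calls, the others were named after their values were seen. The list entry Fbxo18 was matched as Fbh1. Alternatives were other size factors (DESeq2 1.42.0 or plain totals), filters, thresholds, lengths, a negative binomial variance, a pseudocount and leaving out each library. Python 3.11.15, scipy 1.17.1 and pandas 2.3.3 were used. A gene is not reported here.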

Additional observations from a re-analysis of the deposited data

How the results depend on the processing

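With DESeq2 size factors or plain totals, the counts of called genes, of called genes among the 8 other than Blm and of called list genes stayed within 1.5-fold. With plain totals Top3b, Rpa1, Mre11a, Hltf and Atrip lost their calls. With the negative binomial variance these 3 counts were 94, 0 and 0, and at an adjusted p of 0.01 they were 1700, 1 (Wrn) and 13. Without a count filter 1 of the 8, Wrn, was called. Leaving out 1 library gave 960 to 2014 called genes, 0 to 2 of the 8 (0 without library 1, where 1 had an unadjusted p under 0.05) and 8 to 17 list genes, with the fewest called genes and list genes without library 2. The span of Blm was 0.42 to 2.27 on the log2 scale when 1 library was left out, lowest without library 2. The median TPM of the 9 genes, 11.5, moved by less than 1 SD (4.94) under every alternative run for it, and was 16.1 with union exon length. Blm is the median gene, and this SD, taken over the medians of the libraries, carries the wide spread of Blm. A move within it therefore does not show that the median is steady. With totals times TMM factors the CPM levels of the 9 genes also moved by less than 1 SD. Leaving out 1 of 3 libraries cannot move a mean CPM by 1 SD of those libraries, so nothing is read from those runs for CPM levels. No paired analysis was possible because the labels give 1 group. The precision is limited most for Recql4 and Rmi1, whose mean counts were 17.7 and 44.0.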

Other observations

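Genes with 1 library apart from both others, as Blm had, were few in each library. Among 6284 genes with a mean count of at least 100, library 2 was at most 0.5 times both others in 5 genes, library 1 in 4 and library 3 in 4. Blm, chosen for its difference between libraries, is among the 5. A library at 2 or more times both others was seen in 4 genes for library 2, 1 for library 1 and 1 for library 3.

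Counts per coding base of the 9 genes ran from 0.00484 for Recql4 to 0.246 for Recql, while the highest value among genes of at least 1000 coding bases was 2.14.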
